A study of Homo sapiens with 14 samples.

Results

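The genes that build cholesterol and fatty acids were followed across the differentiation of the human embryonic stem cell line MEL1 into pancreatic progenitors and insulin-producing cells. The 30 genes were chosen by name: 18 enzymes of the sterol branch, 7 enzymes of the fatty acid branch and 5 regulators and transport proteins, of 60624 gene identifiers in all. All 30 were found by matching Ensembl identifiers to symbols in GENCODE release 44. The rule itself uses no measured value, but the members were chosen with earlier results of these data known. RNA-seq levels came as TPM, each gene's share of a library's transcripts corrected for transcript length, in 14 libraries of 9 groups.

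In batch 1, with 1 library each, were undifferentiated stem cells (hPSC), definitive endoderm (DE), pancreatic progenitors (PP2) and stem cell-derived β-like cells (SC-β). In batch 2, with 2 libraries each, were expandable pancreatic progenitors at passage 9 (ePP-P9) and passage 21 (ePP-P21) and the β-like cells made from them (ePP-β). In batch 3, with 2 libraries each, were pancreatic progenitors given the BET bromodomain inhibitor I-BET151 at 1 μM for 7 days, or the solvent DMSO. The study names its MEL1 line MEL1 INS GFP/W, a reporter line with GFP in 1 of the INS alleles, and the labels name no other genetic change. The study also used H9 embryonic stem cells and induced pluripotent stem cells. The ePP medium held EGF, bFGF, a TGFβ receptor inhibitor and I-BET151 itself, so the ePP libraries were also I-BET151 libraries. For progenitors studied after 7 days of I-BET151 the study names 1 basal medium, with the same growth factors and TGFβ receptor inhibitor, used without or with I-BET151. The stem cells and the ePPs were grown on feeder cells, and the contribution of feeder RNA was not tested. Nothing states that the libraries of a group came from separate cultures, so p-values measure the spread between these libraries, which may be technical. The batches hold different groups, so batch and group cannot be told apart between them.

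Cholesterol is made from acetyl-CoA through mevalonate, isoprenoid diphosphates, squalene and lanosterol, and fatty acids are made from the same acetyl-CoA through malonyl-CoA. The transcription factor SREBP2 (gene SREBF2) mainly drives the sterol genes and SREBP1 (gene SREBF1) mainly the fatty acid genes. Both are made as membrane proteins that SCAP escorts to the Golgi when sterols are low, while INSIG1 holds SCAP in the endoplasmic reticulum when sterols are high. NF-Y, which binds the CCAAT box, works beside SREBP at many of these promoters.

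Because the members are read as a co-regulated set, 4 promoters are shown: 2 sterol enzymes with repeated CCAAT boxes (MVD, MSMO1), 1 sterol enzyme that holds none (PMVK), and SREBF2 itself. They are the genomic sequence before the first annotated transcript start, read on the gene's strand (RefSeq, GRCh38.p14), with matches in capitals. The motifs searched on both strands were the CCAAT box, the E-box with the letters CACGTG, and the sterol response element with the letters TCACNCCAC. MVD lies at chr16:88663162-88663341 on the minus strand, MSMO1 at chr4:165327419-165327666 on the plus strand, PMVK at chr1:154936720-154936969 on the minus strand and SREBF2 at chr22:41832855-41833104 on the plus strand.
MVD: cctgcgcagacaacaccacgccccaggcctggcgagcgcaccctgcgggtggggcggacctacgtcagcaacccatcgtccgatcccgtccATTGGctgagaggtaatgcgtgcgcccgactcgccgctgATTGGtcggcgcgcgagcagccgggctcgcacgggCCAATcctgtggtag
MSMO1: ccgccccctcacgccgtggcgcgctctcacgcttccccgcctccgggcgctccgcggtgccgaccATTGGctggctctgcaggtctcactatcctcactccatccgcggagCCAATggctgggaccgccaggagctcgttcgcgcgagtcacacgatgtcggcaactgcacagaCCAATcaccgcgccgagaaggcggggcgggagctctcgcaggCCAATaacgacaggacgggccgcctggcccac
PMVK: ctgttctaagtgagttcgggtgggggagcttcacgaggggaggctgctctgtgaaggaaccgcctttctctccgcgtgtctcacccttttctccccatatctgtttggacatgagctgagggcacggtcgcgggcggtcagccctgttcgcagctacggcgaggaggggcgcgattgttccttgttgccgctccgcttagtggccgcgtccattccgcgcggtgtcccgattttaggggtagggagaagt
SREBF2: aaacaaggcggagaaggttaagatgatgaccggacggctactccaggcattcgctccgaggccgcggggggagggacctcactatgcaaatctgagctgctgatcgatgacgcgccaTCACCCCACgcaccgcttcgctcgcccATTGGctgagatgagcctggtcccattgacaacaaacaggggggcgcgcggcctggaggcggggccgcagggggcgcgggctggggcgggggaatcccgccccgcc
The MVD stretch held 3 CCAAT boxes and that of MSMO1 held 4, while SREBF2 held 1 CCAAT box and the set's 1 match to the sterol response element TCACNCCAC. Promoter windows were at hand for 26 of the 30 members; ACAT2, FASN, SQLE and FDFT1 were not among them. In the 250 bases before the RefSeq start, a CCAAT box on either strand stood in 12 of 15 sterol branch windows. It stood in 2 of 6 fatty acid windows and in 3 of 5 windows of the regulators, against 32.9% of 27305 windows of 1 per gene. The member windows were those nearest the GENCODE start, while the windows of all genes were those of lowest coordinate. The shares for each motif thus rest on unlike choices of window. Box counts differed among members of the same direction. Of the 2 that rose in ePP-β against ePP, MVK held 5 and PMVK none, and of those that fell, NSDHL held 5 and DHCR7 none. The RefSeq starts used for MVK and DHCR7 lie 539 and 3825 bases downstream of the first GENCODE start. Those of CYP51A1, ACLY, ELOVL6, FADS1, FADS2 and SCAP lie 326 to 23223 bases downstream of it, so these windows may not be the main promoters. The E-box CACGTG stood in 3 of 26 member windows against 6.33% of all, and TCACNCCAC in 1 of 26 against 0.905%. No motif overlapped another in the stretches printed, and a match is a description of letters, not of binding.

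The libraries' listed values summed to between 908685 and 985497 TPM, and their depth is unknown, since TPM keeps no read number. Summed markers of pluripotency, definitive endoderm and endocrine cells were highest where the labels place them. Pluripotency genes summed to 4159 TPM in hPSC and definitive endoderm genes to 9509 TPM in DE. The 5 endocrine genes summed to 41454 to 45965 TPM in ePP-β and 111415 TPM in SC-β. The 4 pancreatic progenitor genes did not set all progenitor libraries above the β-like ones. They summed to 220.9 and 300.2 TPM in DMSO, beside 247.3 to 258.1 TPM in ePP-β and 273.3 TPM in SC-β. Their sums were higher in PP2 (392.2 TPM), ePP (428.3 to 534.3 TPM) and I-BET151 (494.6 and 832.5 TPM). Glucagon (GCG), the hormone of α cells, was the larger part of the endocrine sum in SC-β, at 74281 TPM beside 20658 TPM of INS, and in ePP-β GCG stood at 14107 and 13359.5 TPM and INS at 10916 and 17374 TPM. The endoderm marker CXCR4 was also high in ePP-β, at 147 and 226 TPM where DE had 105 TPM. The 4 liver-type genes, which no label names, summed to 3736 TPM in PP2, 4930 TPM in SC-β and 8081 to 9238 TPM in DMSO. The 5 mesenchyme genes, which no label names either, summed to 1448 TPM in PP2 and 2562 TPM in SC-β, 45.3 to 70.7 TPM in ePP and 38.5 to 50.6 TPM in ePP-β. Ribosomal protein genes held 20.6% and 28.2% of TPM in the 2 DMSO libraries and 17.0% and 27.9% in the 2 I-BET151 libraries.

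All 30 members were above 1 TPM in each of the 14 libraries. The lowest value was MVK, mevalonate kinase, at 5.30 TPM in I-BET151 replicate 2, and the highest was SCD, stearoyl-CoA desaturase, at 752 TPM in ePP-P9 replicate 1. By group mean TPM, 10 members were highest in ePP-P9, 5 in ePP-P21 and 9 in SC-β, and 11 were lowest in PP2. The members did not share 1 order of groups. SREBF1, MVK and INSIG1 had the widest ranges between group means, 14.01-fold, 13.6-fold and 12.9-fold, with the top in SC-β for each, whereas NSDHL, a C4 demethylation enzyme, ranged only 1.71-fold. Several neighbours in these orders were single libraries or overlapped, so the orders are descriptions.

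**Figure D1:**
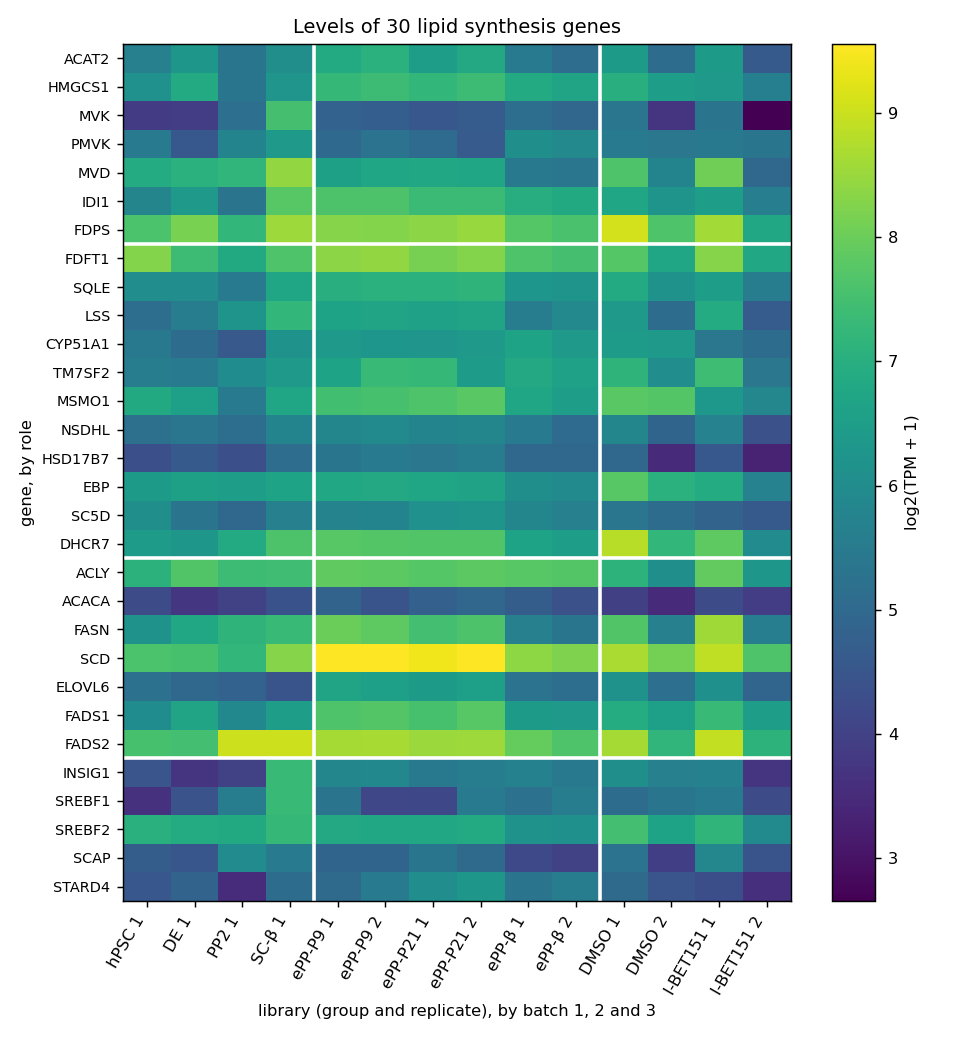
Heat map of log2(TPM + 1) for the 30 genes (rows, by role) in the 14 libraries (columns, by batch). SCD is brightest in the 4 ePP libraries, from 674 to 752 TPM, and the replicate 2 columns of DMSO and I-BET151 are darker than the replicate 1 columns for most rows.

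The 3 comparisons with replicates were tested with limma on log2(TPM + 1) over every gene that reached 1 TPM in 2 or more libraries of the fit, with Benjamini-Hochberg adjustment over all genes; a gene was called at an adjusted p under 0.05, and log2 fold changes below are on the log2(TPM + 1) scale. The first asked how the ePP programme changed as the cells became β-like cells. Of the 30 members, 21 fell in ePP-β against the mean of ePP-P9 and ePP-P21 and 2 rose. Of 18076 genes tested, 28.2% were called lower and 29.2% higher. The median log2 fold change was -0.65 for the sterol branch and -1.21 for the fatty acid branch, against -0.029 for all genes. Of the members, 7 fell by more than 1 log2 unit, where 9.86% of all genes did, and none rose by more than 1, where 17.9% did. Both ePP-β libraries lay below all 4 ePP libraries for 20 members and above them for 3, where 31.6% and 32.2% of all genes lay so.

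FASN, the multienzyme fatty acid synthase (chr17:82078338-82098294, minus strand, hg38), had the largest change. Its levels were 257, 230.3, 180.1 and 198 TPM in the 4 ePP libraries, in the order ePP-P9 then ePP-P21, and 49.4 and 39.4 TPM in the 2 ePP-β libraries. The groups lay far apart, and the log2 fold change was -2.25 (SE 0.11, adjusted p = 3.12e-05). ELOVL6, which elongates palmitate, was at 102, 92.9, 84.5 and 91.9 TPM in ePP and 38.04 and 34.3 TPM in ePP-β, a log2 fold change of -1.33 (SE 0.085, adjusted p = 7.46e-05). The desaturases moved the same way. FADS1, the Δ5 desaturase, stood at 200.1, 207, 187 and 215 TPM in ePP and 85.1 and 82.3 TPM in ePP-β (log2 fold change -1.26 (SE 0.078, adjusted p = 6.80e-05)). SCD stood at 752, 744, 674 and 742 TPM in ePP and 330.3 and 297 TPM in ePP-β (log2 fold change -1.21 (SE 0.075, adjusted p = 6.70e-05)). Neither gene overlapped between the groups, and FADS2, the Δ6 desaturase, was also called, at -0.79 (SE 0.086, adjusted p = 5.72e-04).

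The first 2 enzymes of the fatty acid branch did not pass the test. ACLY, which makes cytosolic acetyl-CoA from citrate, averaged 212 ± 7.44 TPM in ePP-β (SD, n = 2) where ePP had 224 ± 8.15 TPM (SD, n = 4), and limma put the change at -0.078 (SE 0.061, adjusted p = 0.319). ACACA, acetyl-CoA carboxylase, averaged 22.2 ± 3.63 TPM where ePP had 26.2 ± 3.91 TPM, and limma put the change at -0.22 (SE 0.16, adjusted p = 0.282). Both genes overlapped between the groups, so 5 of 7 members of the branch fell and none rose.

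**Figure D2:**
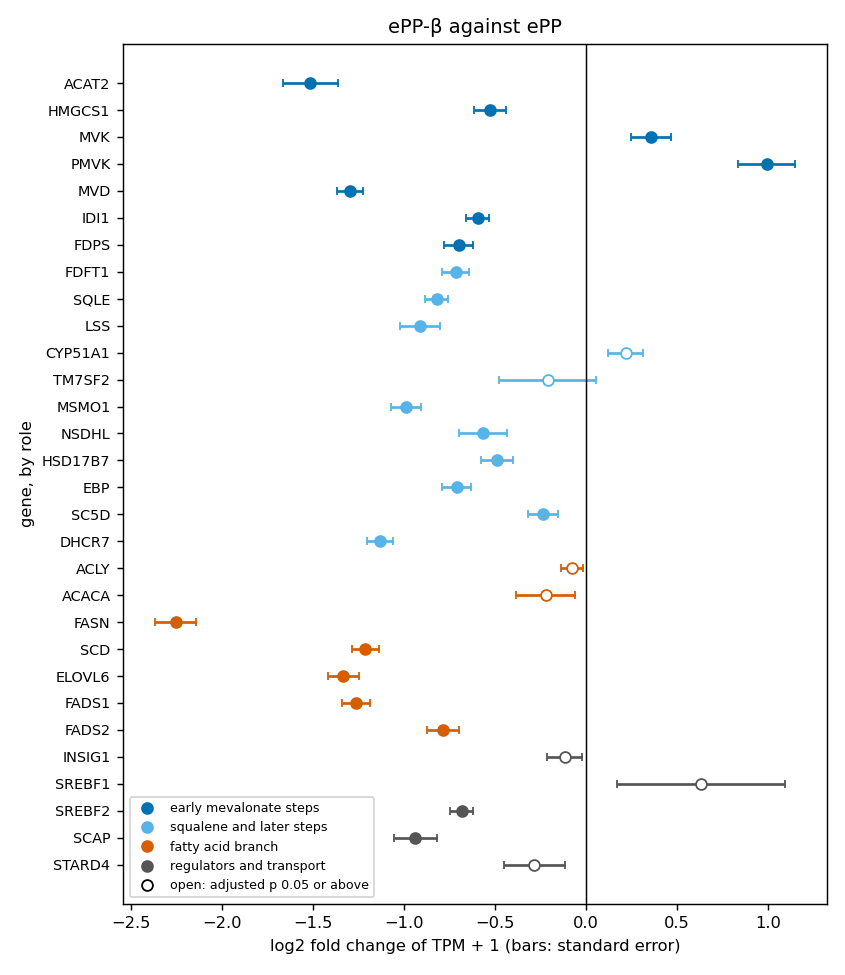
Log2 fold change of TPM + 1 in ePP-β (n = 2) against ePP (n = 4) for each gene, with limma's standard error as bars, filled where the adjusted p was under 0.05 and open otherwise. FASN lies farthest left at -2.25, PMVK farthest right at 0.99, and most sterol enzymes lie between -1.52 and -0.24.

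Among the early mevalonate steps, 5 of 7 fell and 2 rose, where 28.2% of all genes were called lower and 29.2% higher. ACAT2, which joins acetyl-CoA units in the cytosol, was at 117, 134, 89.1 and 113 TPM in ePP and 44.1 and 33.6 TPM in ePP-β (log2 fold change -1.52 (SE 0.15, adjusted p = 3.94e-04)). MVD, which forms isopentenyl diphosphate, was at 95.1, 103, 110.2 and 106 TPM in ePP and 42.5 and 40.5 TPM in ePP-β (log2 fold change -1.30 (SE 0.072, adjusted p = 4.61e-05)). Both lay lower in each ePP-β library than in any ePP library. The 2 kinases that act between them moved in the other direction. PMVK, phosphomevalonate kinase, was at 31.3, 38.1, 32.8 and 23.8 TPM in ePP and 67.2 and 58.5 TPM in ePP-β, without overlap (log2 fold change 0.99 (SE 0.16, adjusted p = 0.00268)). MVK rose less, averaging 31.99 ± 3.76 TPM in ePP-β where ePP had 24.8 ± 2.26 TPM, and limma put the change at 0.35 (SE 0.11, adjusted p = 0.0346). The call for MVK was lost with no expression filter, with median centring, with rescaling without ribosomal protein genes, without the trend in limma, and without any of 4 of the 6 libraries (ePP-P9 replicates 1 and 2, ePP-P21 replicate 1, ePP-β replicate 1), while PMVK kept its call in each. HMGCS1 (HMG-CoA synthase), IDI1 and FDPS, which isomerise and join isoprenoids, fell by 0.53, 0.60 and 0.70 on the log2 scale, with adjusted p from limma of 0.00350, 4.49e-04 and 6.30e-04.

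Of the squalene and later steps, 9 of 11 fell and none rose. DHCR7, the 7-dehydrocholesterol reductase that makes cholesterol, was at 215, 207, 206 and 204 TPM in ePP and 101 and 88.7 TPM in ePP-β (log2 fold change -1.13 (SE 0.073, adjusted p = 7.78e-05)). MSMO1, the C4 methyl oxidase whose promoter with 4 CCAAT boxes is printed above, was at 177, 188, 200.5 and 219 TPM in ePP and 105 and 91.8 TPM in ePP-β (log2 fold change -0.99 (SE 0.083, adjusted p = 1.98e-04)). These values did not overlap. LSS, which closes the lanosterol rings, was at 99.3, 101, 96.3 and 102 TPM in ePP and 46.4 and 59.4 TPM in ePP-β (log2 fold change -0.91 (SE 0.11, adjusted p = 8.17e-04)). SQLE, squalene epoxidase, was at 128, 133, 134 and 139 TPM in ePP and 76.6 and 73.4 TPM in ePP-β (log2 fold change -0.82 (SE 0.063, adjusted p = 1.47e-04)). Both genes had all ePP-β values under all ePP values. FDFT1 (squalene synthase), EBP (sterol isomerase), NSDHL and HSD17B7 fell by 0.72, 0.71, 0.56 and 0.49 on the log2 scale, with adjusted p between 0.000523 and 0.0123. SC5D, the lathosterol desaturase, passed narrowly at -0.24 (SE 0.080, adjusted p = 0.0466), its groups overlapped, and 5 of the 6 leave-one-library-out fits did not call it. CYP51A1, lanosterol demethylase, was the exception in direction among these 11, averaging 92.01 ± 12.3 TPM in ePP-β where ePP had 78.6 ± 2.48 TPM, and did not pass limma's test (0.22 (SE 0.095, adjusted p = 0.0973)). TM7SF2, a sterol C14 reductase, did not pass either (-0.21 (SE 0.27, adjusted p = 0.527)).

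Among the 5 regulators, SCAP and SREBF2 fell and none rose, where 28.2% of all genes were called lower and 29.2% higher. SCAP was at 28.3, 28.6, 39.3 and 31.9 TPM in ePP and 17.1 and 15.2 TPM in ePP-β (log2 fold change -0.94 (SE 0.12, adjusted p = 9.80e-04)). SREBF2 averaged 69.3 ± 1.73 TPM in ePP-β where ePP had 112 ± 2.81 TPM, and limma put the change at -0.68 (SE 0.064, adjusted p = 3.08e-04). Each lay lower in both ePP-β libraries than in all ePP libraries. INSIG1, SREBF1 and STARD4, a carrier of cholesterol between membranes, had log2 fold changes of -0.12, 0.63 and -0.28 with adjusted p of 0.339, 0.284 and 0.191. SREBF1 was uneven within the ePP groups, at 38.6, 16.6, 16.8 and 43.7 TPM.

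Among the neighbouring genes calls went in both directions, where 29.2% of all genes were called higher and 28.2% lower. Of 14 genes of SREBP processing and sterol handling, 5 rose and 5 fell, among them the sterol exporter ABCG1 (log2 fold change 2.67, from 0.0114 ± 0.0115 to 5.43 ± 0.449 TPM), INSIG2 (1.02), the site 2 protease MBTPS2 (0.96) and TMEM97 (-1.69). Of 8 genes of fatty acid oxidation, 5 rose and 1 fell. CPT1A, which admits fatty acids to mitochondria, went from 0.153 ± 0.0258 to 18.4 ± 1.61 TPM (log2 fold change 4.07). ACADS, ETFDH and HADHB had 0.91, 0.56 and 0.54. Of 15 genes of fatty acid supply and elongation, 14 were tested, 3 rose and 4 fell, with the carbohydrate response factor MLXIPL at 4.28, ACSL1 at 1.16, ACSL3 at -1.14 and the citrate carrier SLC25A1 at -1.09. Of 8 genes of the isoprenoid side branches, 2 rose and 3 fell, with PDSS2 at 1.14, COQ2 at -0.76, FNTB at 0.69 and NUS1 at -0.59. CPT1A, ABCG1 and MLXIPL were under 1 TPM in every ePP library and passed the expression filter only through the ePP-β libraries. The filter thus fixed the direction of their calls, which are counted among the rises above, and their changes are given as values only.

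Cell cycle genes moved beside the members: 8 of 8 fell, where 28.2% of all genes were called lower. They fell by 1.03 to 1.53 on the log2 scale, including CCNB1 (-1.53), MCM2 (-1.52), PCNA (-1.50) and MKI67 (-1.49). The 5 endocrine genes summed to 3.63 to 6.17 TPM in the ePP libraries and the 4 liver-type genes to 180.0 to 199.5 TPM there, against 2329 to 2524 TPM for the liver-type genes in ePP-β. The part of proliferation, of the medium or of cell type makeup in the members' decrease was not tested, and in bulk RNA fewer cells that express a gene and less RNA per cell cannot be told apart. When all 10 replicated libraries shared 1 estimate of the spread, 4 members were called lower and 1 higher, where 15.3% and 21.2% of 19179 genes were.

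The second comparison asked whether passage changed these genes. In ePP-P21 against ePP-P9, 0 of 30 members passed limma's adjusted threshold, where 1.82% of 15822 genes were called higher and 0.133% lower; 5 members had an unadjusted p under 0.05, where 23.0% of all genes did. For STARD4 the ePP-P9 libraries held 31.9 and 44.5 TPM and the ePP-P21 libraries 64.5 and 78.1 TPM (log2 fold change 0.90 (SE 0.18, adjusted p = 0.0780)). For SC5D they held 52.2 and 53.5 TPM and 70.04 and 73.8 TPM in the same order (log2 fold change 0.44 (SE 0.087, adjusted p = 0.0743)). Both had their groups apart, with ePP-P21 above. FASN was lower at the later passage in both libraries, at 180.1 and 198 TPM after 257 and 230.3 TPM (log2 fold change -0.36 (SE 0.092, adjusted p = 0.105)), and INSIG1 and IDI1 had -0.33 and -0.26. The sterol branch median was -0.030 and the fatty acid median -0.081, against 0.13 for all genes. Both ePP-P21 libraries lay below both ePP-P9 libraries for 13 of 30 members and above them for 7, where 13.1% and 41.3% of all genes lay so. These 13 included 5 of 7 fatty acid genes, with differences of at most 0.36 log2 units. Without ePP-P9 replicate 2, STARD4 was called higher (adjusted p = 0.00740), where 4.01% of 15479 genes were. Of the neighbouring and cell cycle genes 0 were called by limma, with 4 of SREBP processing and sterol handling, 4 of fatty acid supply and 2 of fatty acid oxidation at an unadjusted p under 0.05, of 13, 13 and 7 genes tested, beside the share of all genes given above. These libraries are also the ePP side of the comparison with ePP-β.

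The third comparison asked what I-BET151 did to the lipid genes of pancreatic progenitors. Here 0 of 30 members passed limma's adjusted threshold, where 0.204% of 16687 genes were called lower and 0.00599% higher. At an unadjusted p under 0.05 there were 2 members, both lower, against 8.98% of all genes. MSMO1 was at 220.0 and 209 TPM in DMSO and 80.4 and 56.97 TPM in I-BET151 (log2 fold change -1.65 (SE 0.33, adjusted p = 0.120)). CYP51A1 was at 88.4 and 80.9 TPM in DMSO and 40.9 and 33.4 TPM in I-BET151 (log2 fold change -1.17 (SE 0.31, adjusted p = 0.180)). For these 2 demethylation enzymes the libraries of a group were close and the groups lay apart.

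Most other members were spread widely within each group. With the replicate number as a block in limma, 7 members were called lower, where 10.3% of all genes were. No label ties a replicate number to a culture or day, so that fit is kept among the alternatives. The replicate differences of DMSO and I-BET151 were nonetheless correlated across 16687 genes (r = 0.68), a shared part that the main fit leaves in its spread. FASN was at 204 and 50.1 TPM in DMSO and 378 and 47.4 TPM in I-BET151, in replicate order. MVD was at 199 and 53.7 TPM in DMSO and 267 and 30.1 TPM in I-BET151. DHCR7 was at 453 and 149 TPM in DMSO and 230.3 and 62.3 TPM in I-BET151. In each case replicate 2 was the lower library of its group. This held for 29 of 30 members in DMSO, SREBF1 being the exception, and for 30 of 30 in I-BET151. The median difference, replicate 2 less replicate 1, was -0.89 log2 units in DMSO and -1.26 in I-BET151, against -0.067 and -0.060 over all genes. More than 1 log2 unit lower were 12 members in DMSO and 20 in I-BET151, where 8.89% and 14.5% of all genes were. PMVK, SC5D and CYP51A1 were among the members that moved least between the replicates. In batch 2 the same median was 0.033 in ePP-P9, 0.10 in ePP-P21 and -0.17 in ePP-β.

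**Figure D3:**
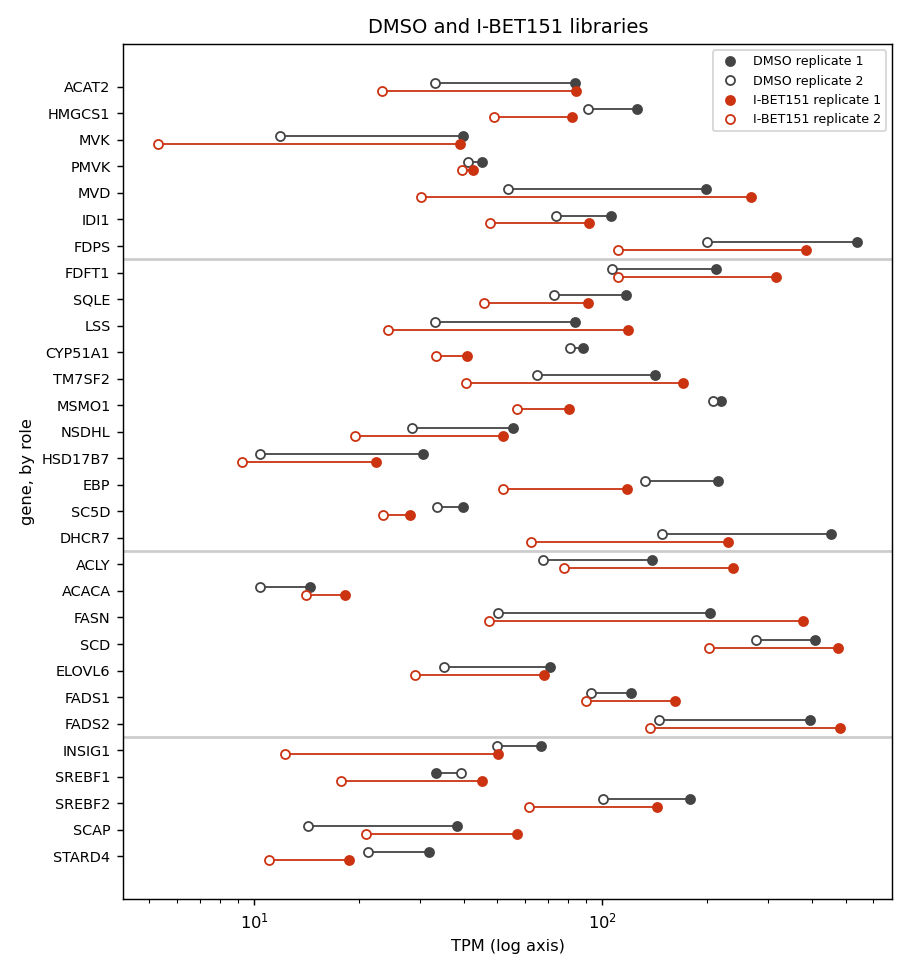
TPM on a log axis for each gene in the 2 DMSO libraries (grey) and the 2 I-BET151 libraries (red), with replicate 1 filled, replicate 2 open and a line between them. The open points lie to the left for all genes except SREBF1 in DMSO, and the red and grey ranges are apart for MSMO1, CYP51A1, HMGCS1, EBP, SC5D and STARD4.

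In 6 of 30 members both I-BET151 libraries lay below both DMSO libraries, and in none did both lie above, where 18.0% and 28.7% of all genes lay so. Beside MSMO1 and CYP51A1 these were HMGCS1 (126 and 90.9 TPM against 81.99 and 49.02 TPM, log2 fold change -0.74 (SE 0.40, adjusted p = 0.448)), EBP (214 and 133 TPM against 118 and 52.01 TPM, log2 fold change -1.10 (SE 0.51, adjusted p = 0.398)), SC5D (39.8 and 33.5 TPM against 28.1 and 23.4 TPM, log2 fold change -0.49 (SE 0.31, adjusted p = 0.516)) and STARD4 (31.8 and 21.2 TPM against 18.8 and 11.1 TPM, log2 fold change -0.80 (SE 0.41, adjusted p = 0.429)). The sterol branch median was -0.46, with 16 of 18 below 0, and the fatty acid median 0.19, against 0.16 for all genes. Between the replicate 1 libraries alone 2 members were more than 1 log2 unit lower in I-BET151, and between the replicate 2 libraries alone 7 were, where 11.0% and 9.14% of all genes were. The medians rest on single libraries: leaving out 1 library at a time gave -1.13 to 0.13 for the sterol branch and -0.73 to 0.61 for the fatty acid branch. Without I-BET151 replicate 1, MSMO1 and INSIG1 were called lower (adjusted p = 0.0414 and 0.0183), where 3.81% of 16020 genes were, and with all 10 replicated libraries in 1 fit MSMO1 and CYP51A1 were called lower (adjusted p = 0.00204 and 0.00502), where 6.89% of 19179 genes were. The neighbouring lists and the 8 cell cycle genes had 0 calls in this comparison, with 2 genes of SREBP processing and sterol handling, 1 of fatty acid oxidation and 1 of the cell cycle at an unadjusted p under 0.05, where 15.2% of all genes were. Liver-type genes summed to 8081 and 9238 TPM in DMSO and 1140 and 2802 TPM in I-BET151, and their part in the sterol values was not tested.

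The stages of batch 1 had 1 library each, so differences between them carry no test. From hPSC to DE no member moved by more than 1 log2 unit in either direction, where 10.8% of 17807 genes that reached 1 TPM in either library were more than 1 higher and 16.1% more than 1 lower. PMVK had the largest difference, from 45.2 to 22.5 TPM (-0.97 log2 units), and SREBF1 the largest in the other direction, from 11.4 to 20.4 TPM (0.79). From DE to PP2, 5 members were more than 1 log2 unit higher and 4 more than 1 lower, where 27.2% and 9.83% of 18578 genes were. Higher were FADS2 (178 to 522 TPM), SCAP (21.7 to 62.8 TPM), MVK (13.97 to 35.3 TPM), PMVK (22.5 to 54.1 TPM) and SREBF1 (20.4 to 45.9 TPM). Lower were HMGCS1 (116 to 39.1 TPM), STARD4 (28.1 to 10.6 TPM), IDI1 (83.2 to 38.9 TPM) and MSMO1 (92.5 to 44.1 TPM). The sterol branch thus split, with a median of -0.29 against 0.38 over all genes. The regulators' median of 0.28 turned to -0.20 with median centring.

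From PP2 to SC-β all 18 sterol branch genes were higher, with a median of 0.87 log2 units against -0.37 over all genes. In all, 12 members were more than 1 log2 unit higher and none more than 1 lower, where 12.7% and 22.1% of 18894 genes were. INSIG1 went from 14.95 to 156 TPM (3.30 log2 units), IDI1 from 38.9 to 217 TPM (2.45), MVK from 35.3 to 184 TPM (2.35), SREBF1 from 45.9 to 159 TPM (1.77) and CYP51A1 from 23.04 to 72.8 TPM (1.62). By group mean over all batches, INSIG1 and SREBF1, both of them targets of SREBP, were at their highest in SC-β. This held for 9 of the 30 members, while 10 were highest in ePP-P9 and 5 in ePP-P21, and ELOVL6 was lowest in SC-β. The fatty acid branch differed less, with a median of 0.20: SCD went from 148 to 316 TPM, FASN from 139 to 159.9 TPM, and ELOVL6 from 27.5 to 20.8 TPM. The 8 cell cycle genes summed to 1191 TPM in PP2 and 215 TPM in SC-β. The 5 mesenchyme genes summed to 1448 and 2562 TPM in the same order and the 5 endocrine genes to 28.8 and 111415 TPM, and the part of cell type makeup in the members' differences was not tested.

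**Figure D4:**
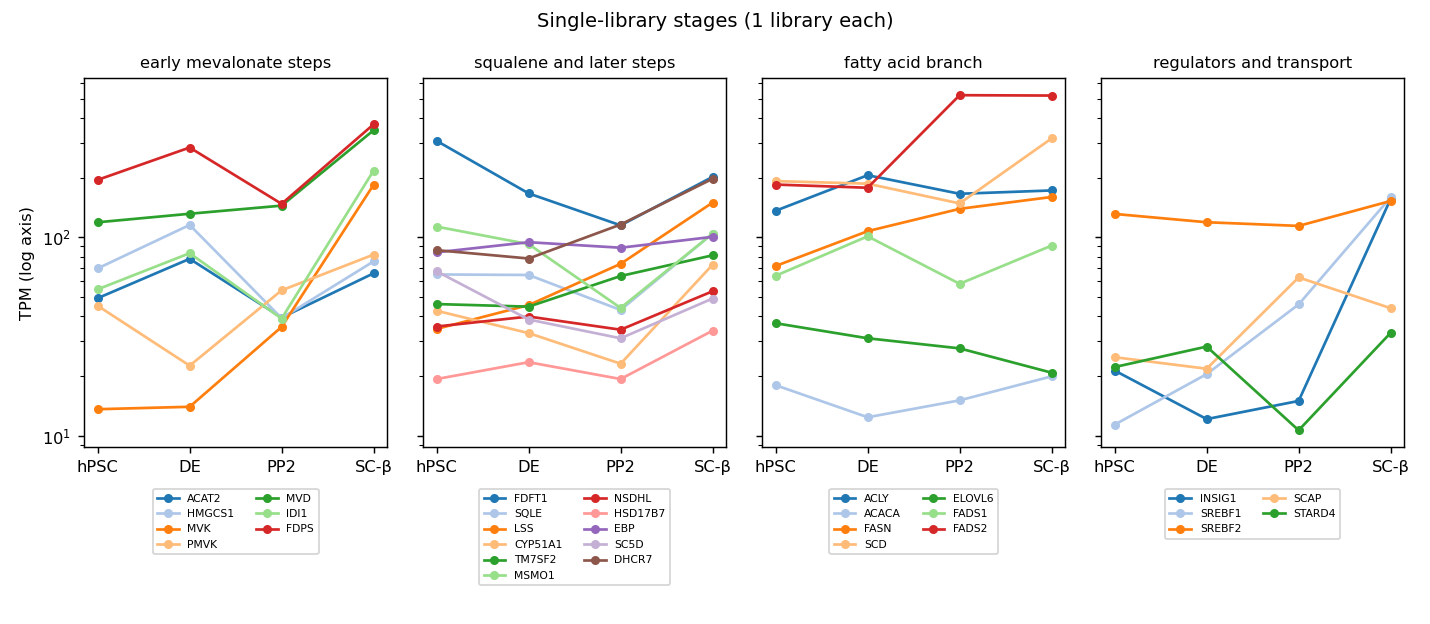
TPM on a log axis for each gene at the 4 stages of batch 1, 1 library each, in 4 panels by role. MVK, IDI1, INSIG1 and SREBF1 climb steeply from PP2 to SC-β, while FADS2 climbs from DE to PP2 and stays level.

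Of the 18 sterol branch genes, 15 had a log2 fold change below 0 in ePP-β against ePP. Of these, 14 were called lower, where 28.2% of all genes were, and 3 by more than 1 log2 unit, where 9.86% were. In the SC-β library 18 were higher than in the PP2 library, a difference with no test. Of them, 8 were more than 1 log2 unit higher, where 12.7% of all genes were. The ePP and ePP-β libraries belong to another batch than PP2 and SC-β, so the levels are set side by side without a test. Mesenchyme genes were at least 1448 TPM in sum in PP2 and SC-β and at most 70.7 TPM in ePP and ePP-β, and their part in these levels was not tested. All 4 ePP libraries were above PP2 for 23 of 30 members, and below it for MVK, PMVK, MVD, FADS2, SREBF1 and SCAP; 29.2% of 19170 genes were above and 47.0% below. Both ePP-β libraries were below SC-β for 20 of 30 members and above it for 7, where 38.3% and 50.8% of 19533 genes were. Both DMSO libraries were above PP2 for 15 members and below it for 6, where 24.7% and 59.7% of 18969 genes were. The sterol branch summed to 1151 TPM in PP2, to 2313 and 2449 TPM at passage 9 and 2311 and 2372 TPM at passage 21, to 1581 and 1413 TPM in ePP-β and to 2494 TPM in SC-β. The fatty acid branch summed to 1077 TPM in PP2, to 1964 and 1922 TPM at passage 9 and 1732 and 1875 TPM at passage 21, to 988 and 882 TPM in ePP-β and to 1299.5 TPM in SC-β. The ePP-β sums thus lay between those of PP2 and ePP for the sterol branch and below that of PP2 for the fatty acid branch.

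Some levels may hold reads of other genes, since the strand setting of the counting is not stated. By GENCODE exons, MVK shares 225 bases with MMAB and SREBF1 556 bases with RAI1, FADS1 and FADS2 share 490 bases with each other, and CYP51A1 shares 2844 bases with an unnamed gene on its own strand. FDPS has 8 named pseudogenes, IDI1 and CYP51A1 have 3 each, HSD17B7 has 2 and SCD has 1, so their levels are uncertain by whatever share of reads these took.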

How the data were processed

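RNA of 14 libraries was sequenced by the study in paired-end reads, aligned with HISAT2 (version 2.1.0, per the labels) to hg38 and assembled with StringTie. The authors deposited TPM per Ensembl gene identifier; the annotation release and strand setting are not given in the sources used here. Groups, replicate numbers and batches came from the labels. Gene symbols and positions were taken from GENCODE release 44, which matched 60370 of 60624 identifiers. The depth is unknown, and no interval for counting error can be given.

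Values were tested as log2(TPM + 1) with limma 3.58.1 in R 4.3.3 (trend, two-sided, Benjamini-Hochberg over all genes), with only the groups compared in each fit and a filter of 1 TPM in 2 libraries. The ePP level was the mean of both passages. No counts were at hand, so no count test was run. The pipeline was tested on simulated data with equal, independent noise in every library. That test does not cover the wider, correlated replicate differences of DMSO and I-BET151. The members, the neighbouring lists and the markers were chosen with earlier results of these data known. All members may be named; values per library were given for called members, up to 12 a comparison, and for the largest stage differences, and further members with groups apart or a wide spread were added after their values were seen. Neighbours were named when called, up to 4 a list. Alternatives were another pseudocount, filter, scaling, spread estimate or block and each library left out.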

Additional observations from a re-analysis of the deposited data

How the results depend on the processing

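In I-BET151 against DMSO, the count of members called lower went from 0 to 2 with all 10 replicated libraries in 1 fit, and to 7 with the replicate number as a block. The fatty acid median went from 0.19 to -0.73 without I-BET151 replicate 1, within a leave-one-out range of -0.73 to 0.61. In ePP-P21 against ePP-P9, median centring gave medians of -0.23 (sterol), -0.29 (fatty acid) and -0.11 (regulators, from 0.096), and quantile normalization gave -0.092 for the sterol branch. Leave-one-out fits gave -0.020 to 0.30 for the regulators and 0 to 1 members called higher. In ePP-β against ePP, the count called higher went from 2 to 1 with no filter, with median centring, without ribosomal protein genes, with all 10 libraries in 1 fit and without the trend, and was 1 to 3 as each library was left out. The count called lower went from 21 to 4 with all 10 libraries in 1 fit. Median centring gave -0.78, -1.35 and -0.42 for the sterol, fatty acid and regulator medians, rescaling without ribosomal protein genes gave -0.75 and -1.32 for the first 2, and leave-one-out gave -0.76 to -0.58 for the sterol branch. The wider spread of the batch 3 libraries enters the fit of all 10; for the other changes the cause was not tested.

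In the stages, pseudocounts of 0.1 and 0.01 put 1 member more than 1 log2 unit lower in DE than in hPSC. For PP2 against DE, median centring gave medians of -0.77, -0.64 and -0.20 (regulators, from 0.28), with 2 members more than 1 higher and 9 more than 1 lower, and rescaling without ribosomal protein genes gave 3 and 7. For SC-β against PP2, median centring gave 1.24, 0.57 and 1.92, with 20 members more than 1 higher. Another 256 values of these counts and medians stayed within 1.5 times for a count, the spread between libraries for a tested comparison's median and 0.25 log2 units for a stage median. In batch 3 that spread was wide, with an SD of the sterol branch mean of 0.65 log2 units in DMSO and 0.96 in I-BET151. Medians that changed sign there, such as the sterol median from -0.46 to 0.13 without I-BET151 replicate 2, are thus among the 256. For batch 3 the count does not show stable medians.

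Groups share replicate numbers in the labels, with 2 numbers each and no statement that a number marks a shared culture or day. Across genes, the replicate differences of DMSO and I-BET151 had r = 0.68, those of ePP-P9 and ePP-P21 r = -0.0093, and those of ePP-β with ePP-P9 and ePP-P21 r = 0.032 and 0.044. With the replicate number as a block, 7 members were called lower by limma in I-BET151 against DMSO: MSMO1, CYP51A1, DHCR7, EBP, HMGCS1, STARD4 and FDPS (adjusted p from 0.00835 to 0.0481), where 10.3% of 16687 genes were called lower. The block gave 0 calls in ePP-P21 against ePP-P9 (0.563% of all genes higher, 0.0442% lower), and 2 higher and 21 lower in ePP-β against ePP (29.3% and 28.8% of all genes), where SC5D was lost and STARD4 gained.

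TPM gives shares of a library, so a member's level moves with the total of all other genes, and log2(TPM + 1) understates changes of genes near 1 TPM. With 2 libraries a group and 1 for each stage, the spread is known from few libraries.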

Other observations

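Over the 10 libraries of batches 2 and 3, each batch centred on its mean, Pearson's r between each sterol enzyme and the mean of the others had a median of 0.895 and ranged from -0.33 for PMVK to 0.987 for FDPS. The values are descriptions over 10 libraries that share batches, and the spread within DMSO and I-BET151 weighs heavily in them. SREBF2, which was left out of that mean, had an r of 0.986, while SREBF1 had 0.159. CYP51A1 and ACACA, at 0.367 and 0.395, also followed it loosely. Of 19097 genes, those outside the 30 with the highest r were MMAB (0.993), MAP2K2 (0.989), IHH (0.988), PYM1 (0.986) and RPS6KA1 (0.980). MMAB, a cobalamin enzyme, lies head to head with MVK, whose own r was 0.745.

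A pair of members differed between libraries of the same ePP group. For SREBF1 the ePP-P9 libraries held 38.6 and 16.6 TPM and the ePP-P21 libraries 16.8 and 43.7 TPM. For TM7SF2 they held 100.1 and 157 TPM and 152 and 88.1 TPM in the same order. For each gene the group means differed by less than the libraries within a group.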
